A study of Mus musculus with 34 samples.

Results

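SCH-772984 is an inhibitor of the ERK kinases, and its effect is described here from the 1 library, of 34 in the series, that was made from cells treated with it. The library was picked by its label, a library code that the study's supplementary data pair with the compound name and a dose of 2 µM, and no measured value was used to pick it. All cells were N2A, a mouse neuroblastoma line, treated for 24 h in a medium that carried DMSO, the solvent of the compounds. The 34 libraries covered 28 conditions, which were DMSO alone and 27 compounds, and 5 of the conditions had replicates. SCH-772984 was compared with the 3 libraries of DMSO alone, labelled A, B and C, and set beside the 1 library of Trametinib, an inhibitor of MEK1 and MEK2, which was given at 1 µM. The study chose the compounds for sequencing by their effect on microexons in RT-PCR assays of other samples and by how far their structures differ. A single cell line, a single dose and a single time limit what the SCH-772984 library stands for, and nothing in the labels says whether the DMSO libraries came from separate cultures.

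MEK1 and MEK2 phosphorylate the ERK kinases, which stand at the end of the Ras, Raf, MEK and ERK cascade below growth factor receptors. Active ERK enters the nucleus and drives transcription of immediate early genes such as Egr1 and Fos and of ETS-family transcription factors such as Etv4 and Etv5. It also induces its own inhibitors, among them the phosphatases Dusp4 and Dusp6 and the Sprouty and Spred proteins, so the levels of these mRNAs are a common readout of ERK activity. In sympathetic neuroblasts and neuroblastoma the cascade lies below receptors such as Ret and the neurotrophin receptors. Microexons are very short exons, here of up to 27 nucleotides (nt), that are included mostly in neurons through the splicing factors Srrm4 and Srrm3. Most of them keep the reading frame and add a few amino acids at the surface of a protein, often in proteins of vesicle traffic, the cytoskeleton and the synapse. N2A cells include many microexons at an intermediate level, from which a change in either direction can be seen.

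Splicing was measured as percent spliced in (PSI), the share of transcripts that include a sequence, estimated by the authors from reads over exon junctions. The microexons that changed most against DMSO and could be placed in transcripts are shown next, since they carry the main splicing result, followed by the pair in the related kinases Tnik and Mink1. The sequences come from GENCODE vM21 mouse transcripts, written 5′ to 3′ on the strand of the gene. Capitals mark the microexon and lower case the 12 bases of the neighbouring exon on each side.
Heatr5a: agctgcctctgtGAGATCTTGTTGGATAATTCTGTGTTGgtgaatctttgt
Kcnq5: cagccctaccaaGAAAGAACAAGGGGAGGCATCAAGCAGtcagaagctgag
Src: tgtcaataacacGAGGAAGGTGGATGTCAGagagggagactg
Snx14: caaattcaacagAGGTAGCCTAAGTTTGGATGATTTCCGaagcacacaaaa
Slc38a10: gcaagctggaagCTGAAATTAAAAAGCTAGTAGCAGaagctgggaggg
Fryl: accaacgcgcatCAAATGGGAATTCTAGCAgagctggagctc
Mark3: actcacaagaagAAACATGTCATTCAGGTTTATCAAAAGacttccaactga
Rab3gap1: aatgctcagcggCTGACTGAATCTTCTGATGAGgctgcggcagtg
Ergic3: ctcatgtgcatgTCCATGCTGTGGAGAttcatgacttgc
L1cam: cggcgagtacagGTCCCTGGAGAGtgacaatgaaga
Phf21a: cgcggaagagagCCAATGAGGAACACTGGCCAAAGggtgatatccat
Tnik: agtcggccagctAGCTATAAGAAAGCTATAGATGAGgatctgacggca
Mink1: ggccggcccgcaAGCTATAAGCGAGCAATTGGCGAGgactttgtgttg

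Exons were matched to these transcripts by chromosome, exon length and the lengths of both neighbouring introns, which placed 26 of the 33 called microexons at 1 position each and left 7 unplaced. Of the 26, 23 were in coding sequence. The GC content of the placed microexons ran from 29.2% to 66.7% with a median of 44.4%. The microexons of Tnik and Mink1, both 24 nt, were identical at 18 bases. Coordinates are given below in GRCm38 for placed exons and in mm9, the build of the authors' events, for the others.

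Depth and cell identity bear on all results. The reads behind exon PSI summed to 52286736 for SCH-772984, 53351280 for DMSO A, 46805680 for DMSO B, 26303472 for DMSO C and 35054900 for Trametinib, in a series range of 23217100 to 53351280. DMSO C was the shallowest control, and several microexons below did not pass the filters there. The deposited gene levels are reads scaled to transcript length and library depth (RPKM), 1 value per gene and condition, with the DMSO libraries merged by the authors. Of 26 sympathoadrenal and neuronal markers, 20 were above 5 RPKM in DMSO or SCH-772984, with Hand2 at 248 and 255 RPKM. None of the fibroblast, glial, immune, epithelial or endothelial markers (8, 9, 7, 6 and 5 genes) was above 5 RPKM in either condition, and the highest reached 2.32 RPKM.

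With SCH-772984 many more microexons gained inclusion than lost it. Of 621 microexons with sufficient reads in both conditions, 31 rose (4.99%) and 2 fell (0.322%). A call needed a difference of at least 10 PSI from the mean of the DMSO libraries and a posterior probability above 0.95 from the reads. When each DMSO library was set against the other 2 in the same way, 1.19% to 1.57% of microexons were called increased and 1.25% to 1.53% decreased. The increases with SCH-772984 were thus above, and the decreases below, all 3 values found without treatment. A difference need not be a call: 306 of the 621 microexons were above their DMSO mean and 191 below it, and 176 were above every DMSO library whereas 79 were below every one.

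No such excess was seen for the other kinds of event. Of 58301 cassette exons over 27 nt, 243 were called increased (0.417%) and 251 decreased (0.431%), against 0.379% to 0.428% and 0.454% to 0.585% among DMSO libraries. Alternative 3′ splice sites gave 99 increased (0.59%) and 124 decreased (0.74%) of 16768, where the DMSO libraries gave 0.679% to 0.79% and 0.69% to 0.726%. Alternative 5′ splice sites gave 111 increased (0.89%) and 113 decreased (0.906%) of 12476, beside 0.81% to 0.935% and 0.724% to 0.966% without treatment. Of 87198 introns, retention was called increased for 189 (0.217%) and decreased for 177 (0.203%), where the DMSO libraries gave 0.173% to 0.297% and 0.12% to 0.253%. Apart from decreases at alternative 3′ splice sites, which lay just above the DMSO range, and increases there and decreases of cassette exons, which lay below it, each of these shares was inside the range of the DMSO libraries.

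**Figure D1:**
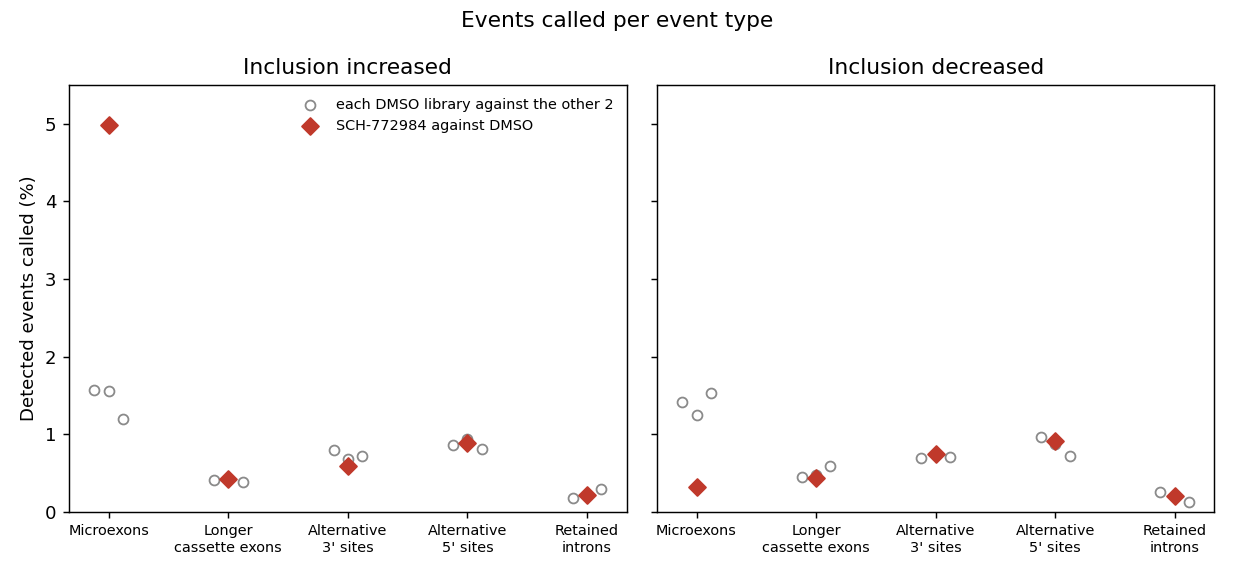
Share of detected events called increased (left) or decreased (right), in percent, for 5 event types. Diamonds are SCH-772984 against DMSO and open circles each DMSO library against the other 2; the diamond stands far above the circles for microexon increases, at 4.99% against 1.19% to 1.57%.

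A DMSO mean of 10 to 90 PSI was found for 26.9% of the microexons and 4.9% of the longer cassette exons, so both were also counted over such exons alone. Of 167 such microexons 28 were called increased (16.8%) and 2 decreased (1.2%), while the DMSO libraries among themselves gave 4.0% to 5.56% and 3.09% to 6.0%. Of 2858 such cassette exons 237 were called increased (8.29%) and 115 decreased (4.02%), and DMSO libraries gave 7.75% to 8.3% and 4.0% to 5.51%. The median difference over the 167 microexons was 2.54 PSI, with 121 above and 46 below their DMSO mean.

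The microexons are described by the role of their genes, an order set for description only, with no count or test of such roles. Among the kinases, Src is a membrane-bound tyrosine kinase, and its 18-nt microexon, which adds residues to the SH3 domain, makes the neuronal form N1-Src. It lies at chr2:157458843-157458860 on the plus strand, in coding sequence. Inclusion was 14.4 PSI in DMSO A, 26.5 in DMSO B and 42.2 with SCH-772984 (95% Wilson interval 32.5 to 52.6, 89 reads), with no DMSO C value. The SCH-772984 value was above both controls by 21.7 PSI on average, and Trametinib stood between them and SCH-772984 at 32.7 PSI. Mark3, a kinase that frees microtubules of their associated proteins, has a 27-nt microexon at chr12:111651958-111651984 on the plus strand. Its inclusion was 29.1, 20.7 and 23.6 PSI in DMSO A, B and C and 41.2 with SCH-772984, a difference of 16.8 PSI. The 3 controls did not reach the interval of the treated library (36.2 to 46.4 PSI), and Trametinib gave 41.3 PSI.

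Tnik and Mink1 belong to the germinal centre kinases, which act on the actin cytoskeleton and JNK signalling. The related microexons printed above lie at chr3:28625199-28625222 and chr11:70609408-70609431, both on the plus strand. In Tnik inclusion was 49.5, 44.7 and 43.8 PSI in DMSO A, B and C and 58.4 with SCH-772984. In Mink1 it was 72.9, 67.1 and 62.1 PSI in DMSO and 77.5 with SCH-772984. Both were above every control, by 12.4 and 10.1 PSI on average, and Mink1 was no longer called when DMSO B or C was left out (differences of 9.975 and 7.435 PSI). These 2, and other called microexons outside the 12 with the largest differences (Picalm, Ckap5, Arrb1, Slc43a2, Sgip1 and the rest), were named after their values were seen. The 21-nt microexon of Mast2, a kinase bound to microtubules, was at 47.1, 48.9 and 33.3 PSI in DMSO A, B and C and at 55.1 with SCH-772984 (50.6 to 59.5, 473 reads). DMSO C was the low control there, and without it the difference was 7.11 PSI and not called.

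Microexons also rose in genes of the plasma membrane. Kcnq5 is a subunit of the potassium channels that carry the neuronal M-current. Its 27-nt microexon at chr1:21466383-21466409, minus strand, was included at 42.8 PSI in DMSO A, 28.2 in DMSO B and 60.5 with SCH-772984 (49.0 to 70.9, 73 reads). The difference was 25 PSI, the controls themselves were far apart, and neither DMSO C nor Trametinib gave a value. L1cam is an axonal adhesion molecule, and its 12-nt microexon in the part inside the cell is a mark of the neuronal form. At chrX:73855652-73855663, minus strand, its inclusion was 42.6, 41.4 and 38.1 PSI in DMSO A, B and C. With SCH-772984 it was 56.7 PSI (53.2 to 60.0) from 807 reads, 15.97 above the DMSO mean of 40.7 ± 2.32 (SD, n = 3). The controls lay within 5 PSI of each other and Trametinib was at 58.5 PSI. Slc38a10, an amino acid transporter, has a 24-nt microexon at chr11:120108467-120108490 on the minus strand. It was at 37.1, 40.6 and 47.0 PSI in DMSO A, B and C, at 58.4 with SCH-772984 and at 61.7 with Trametinib. Trpm2, a cation channel opened by oxidative stress, has a 3-nt microexon (chr10:77393544-77393546 in mm9). It was at 14.8 PSI in DMSO A, 21.9 in DMSO B and 34.7 with SCH-772984, and without DMSO A its difference of 12.75 PSI missed the posterior limit.

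Of the genes that act in membrane traffic, Snx14, a sorting nexin, has a 27-nt microexon at chr9:88400723-88400749 on the minus strand, which was at 51.7, 46.9 and 42.4 PSI in DMSO A, B and C. With SCH-772984 it was at 64.2 PSI (59.2 to 69.0, 366 reads), 17.2 above the mean, and Trametinib gave 69.8 PSI. Ergic3 cycles between the endoplasmic reticulum and the Golgi, and its 15-nt microexon lies at chr2:156015377-156015391 on the plus strand. Inclusion was 33.9, 39.8 and 42.0 PSI in DMSO A, B and C, 54.6 with SCH-772984 (50.3 to 58.9, 510 reads) and 53.6 with Trametinib. Rab3gap1 is the catalytic subunit of a complex that acts on the vesicle GTPase Rab3. Its 21-nt microexon at chr1:127941594-127941614, plus strand, was at 16.2 PSI in DMSO A, 17.8 in DMSO B, 33.4 with SCH-772984 and 33.7 with Trametinib. Ppfia2, or liprin-α2, is a scaffold of the presynaptic active zone. Its 9-nt microexon (chr10:106319792-106319800 in mm9) was at 15.01, 21.6 and 15.9 PSI in DMSO A, B and C and at 34.5 with SCH-772984. In all 4 genes the treated library lay above every measured control.

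Picalm, a clathrin assembly protein, had the most reads of the called microexons, 2892 with SCH-772984. Its 24-nt microexon was at 30.5, 34.6 and 33.6 PSI in DMSO A, B and C and at 42.9 with SCH-772984 (41.1 to 44.7). The difference of 10.04 PSI was just past the limit for a call, and was 8.845 PSI without DMSO A. Ckap5, which elongates microtubules, had close controls, 43.98, 45.3 and 44.9 PSI, and reached 56.0 with SCH-772984 from 1100 reads. Arrb1, or β-arrestin 1, rose from 72.0, 78.1 and 76.3 PSI in DMSO A, B and C to 87.5.

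Heatr5a, a protein of HEAT repeats, had the largest difference of all microexons. Its 27-nt microexon at chr12:51912205-51912231, minus strand, was at 12.1 PSI in DMSO A, 13.9 in DMSO C and 42.0 with SCH-772984 (32.2 to 52.5, 87 reads), a difference of 28.98 PSI. In 26 libraries of the other compounds its PSI was between 2.51 and 28.1, with a median of 16.4, and Trametinib gave 17.8 PSI. The SCH-772984 value was above all of them. For other microexons above, many of these libraries exceeded SCH-772984: 15 of 29 for L1cam and for Snx14, 15 of 28 for Ppfia2 and 13 of 29 for Slc38a10. Fewer did so for Ergic3 (6 of 29), Rab3gap1 (6 of 24), Src (5 of 23), Kcnq5 (5 of 17), Mark3 (2 of 27) and Trpm2 (2 of 28). Fryl, a large protein related to furry, has an 18-nt microexon at chr5:73024771-73024788 on the minus strand. It was at 52.0 PSI in DMSO A, 66.7 in DMSO B, and 76.1 with both SCH-772984 and Trametinib, and without DMSO A its difference of 9.44 PSI was not called. Urgcp and Slc43a2 stood out for their low controls. Urgcp, whose microexon has 4 nt, was at 0, 0 and 3.87 PSI in DMSO A, B and C and 14.4 with SCH-772984, and its highest value over 29 libraries of the other compounds was 3.82 PSI. Slc43a2, an amino acid transporter, was at 0 PSI in all 3 controls, from 23, 35 and 22 reads, and at 11.3 with SCH-772984. Counts of 0 at that depth allow up to 13.04, 8.57 and 13.6 PSI in DMSO A, B and C, so the treated value is within that limit in DMSO A and C.

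Only 2 microexons were called decreased, and both stayed called when any DMSO library was left out, where the count became 4 without DMSO A, 4 without B and 3 without C. Phf21a is a histone reader of the repressor complex that holds the demethylase Lsd1. Its 23-nt microexon, the printed exon whose length is no multiple of 3, lies at chr2:92351609-92351631 on the plus strand. It was at 58.4, 60.1 and 60.4 PSI in DMSO A, B and C and at 44.2 with SCH-772984 (36.7 to 52.0, 159 reads), a decrease of 15.4 PSI. Gnas encodes the stimulatory G protein subunit, and the 24-nt exon called in it (chr2:174328108-174328131, plus strand) is annotated in a noncoding transcript. It was at 55.3, 51.4 and 52.7 PSI in DMSO and 39.1 with SCH-772984. The controls of both exons lay within 4 PSI of each other, above the treated library. Trametinib gave 37.3 PSI for Gnas and 55.9 for Phf21a.

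**Figure D2:**
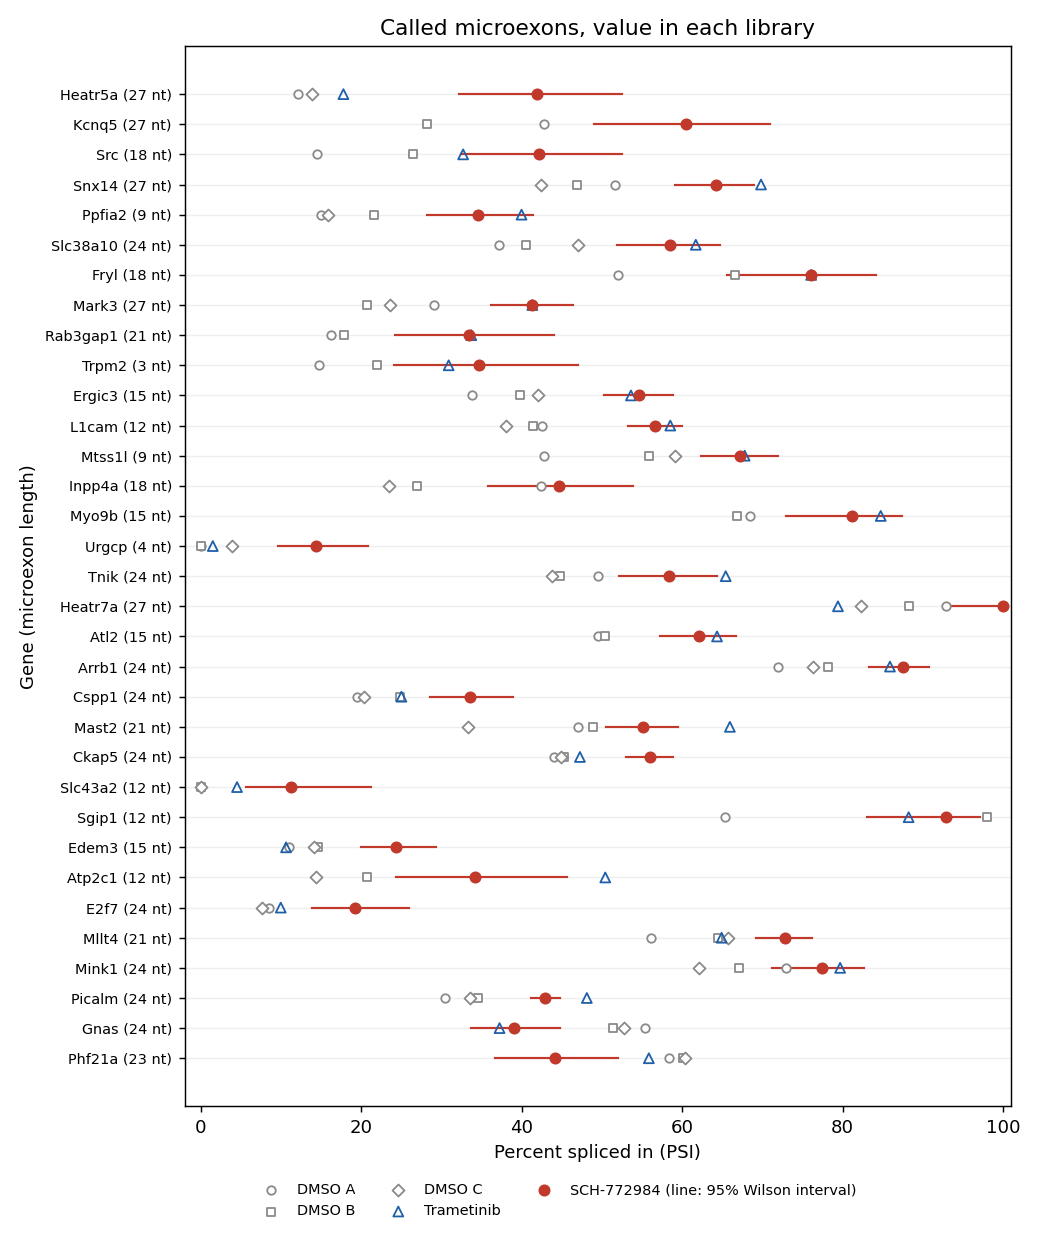
PSI of the 33 called microexons, ordered by their difference from DMSO, with the microexon length in nt beside the gene. Filled circles are SCH-772984 with a 95% Wilson interval, open grey symbols the DMSO libraries and blue triangles Trametinib. In 29 of the 31 that increased the filled circle is to the right of every DMSO symbol, which the call itself favours.

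Over the 31 microexons that rose, the median difference was 13.1 PSI, from 10.04 to 28.98. The treated library was above every measured DMSO value in 29 of them, and in 26 the lower end of its interval was. The 31 were called for lying above the mean of the same DMSO libraries, so both counts largely follow from the call. The exceptions to the first count were Atp2c1, which was at 34.2 PSI in both SCH-772984 and DMSO A, and Sgip1, which was at 65.4 PSI in DMSO A, 98 in DMSO B and 92.9 with SCH-772984. Without DMSO A the difference of Sgip1 turned to -5.14 PSI. All 3 controls were measured in 21 of the 31, and 20 stayed called whichever DMSO library was left out. Those lost under at least 1 such omission were Fryl, Mast2, Mink1, Picalm and Trpm2, given above, Sgip1, Mllt4 and Mtss1l (7.745 and 9.795 PSI without DMSO A), Heatr7a (9.415 without C), Atp2c1 (9.895 without B and 6.75 without C) and Inpp4a (11.715 and 9.98). The counts of the 31 that stayed called were 25 without DMSO A, 28 without B and 26 without C.

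The 31 had a median length of 21 nt, and 30 of them had a length that is a multiple of 3 (96.8%), as had 152 of the 167 microexons of intermediate PSI (91.0%) and 465 of the 621 (74.9%). By length, 12 of 320 microexons of up to 15 nt rose (3.75%) and 19 of 301 longer ones (6.31%). Those of up to 15 nt were 38.7% of the 31 and 40.7% of the 167 of intermediate PSI, so over the latter the lengths differed little. Next below the limit for a call stood Synj1 (9.22 PSI above DMSO), Psap (9.14), Clasp2 (8.997), Layn (8.95) and Kifc3 (8.93), and on the other side Daam1 (9.14 PSI below). Just above it stood Picalm, Mink1 and Mllt4, at 10.0, 10.1 and 10.7 PSI. Hook2 and Rpgrip1l differed by 11.2 and 11.3 PSI but missed the posterior limit, as did Shank2 at 13.8 PSI, where the DMSO libraries ranged from 37.6 to 64.1. Some named exons were called only when a control was left out: Shank2 without DMSO A or B (16.33 and 19.215 PSI), Kifc3 and Iffo1 without C (10.445 and 11.67 PSI) and the 36-nt exon of Zdhhc20 without B (12.2 PSI).

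A call with 1 treated library rests on its reads and on the spread of the controls. Over the 566 microexons measured in every control, the median SD of the DMSO values was 0.75 PSI with a 95th percentile of 5.63, while over the 31 that rose the median SD was 4.21 PSI. A limma fit that uses the spread between libraries gave 10 of the 31 an unadjusted p below 0.05 and none an adjusted p below it, the smallest adjusted p being 0.409. That fit has 1 library on the treated side and takes its spread from the 5 conditions with replicates. Set against that spread the differences were not clear after adjustment. How far they would recur in a second SCH-772984 library was not measured.

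The mRNA levels of the host genes were compared as well. Of the 33 genes with a called microexon, 32 were in the gene table and 29 of these were above 5 RPKM. None differed by more than 2-fold, with log2 ratios from -0.27 to 0.82 and a median of 0.18. Over all 9634 genes above 5 RPKM 1.27% were lower and 0.633% higher. A set this small can hold none without differing from other genes. The highest ratio was that of Ppfia2, at 8.59 RPKM in DMSO and 15.5 with SCH-772984.

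Among exons of 7 genes that the study followed by other assays, the microexons of Ergic3 and Mast2 were called, as given above, and the others were not. The 21-nt microexon of Mef2d, a neuronal transcription factor, was at 89.5, 88.7 and 88.7 PSI in DMSO A, B and C and 90.6 with SCH-772984. The 27-nt microexon of Trappc9 was at 29.7, 31.6 and 33.2 PSI in DMSO and 33.3 with SCH-772984. Neither passed the limit. The 36-nt exon of the palmitoyltransferase gene Zdhhc20 was at 28.96, 41.4 and 31.3 PSI in DMSO and 42.3 with SCH-772984, 8.44 above the mean, and DMSO B was close to the treated value. The 148-nt exon of Mast2 was at 53.8, 56.4 and 48.4 PSI and at 59.6 with SCH-772984. The exons of Mgrn1 and Asph differed by less than 4 PSI.

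SCH-772984 and Trametinib were then compared directly, without DMSO, in 630 microexons. Inclusion was higher with SCH-772984 in 7 (1.11%) and lower in 35 (5.56%). Single DMSO libraries set against each other in the same way gave shares of 1.21% to 2.42% in either direction. The share that was higher lay below all of these and the share that was lower above them. The doses were 2 µM and 1 µM and each had 1 library, so the comparison is between libraries and not between matched doses. The largest differences with SCH-772984 lower were in Myo6, a motor of endocytic vesicles (44.7 against 95.8 PSI), Tmco4 (51.8 against 74.9), Ank2, a membrane scaffold (55.9 against 78.9), and Kdm1b, a histone demethylase (19.4 against 42.4). The Myo6 values rested on 48 reads with SCH-772984 and 18 with Trametinib. Zfyve27, which acts in neurite growth, was at 40.8 against 63.7 PSI, and Lphn2, an adhesion receptor, at 20.6 against 41.6.

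Of the 6 genes just named, the 4 with more than 1 DMSO value differed from DMSO by less than 7 PSI with SCH-772984. Ank2 was at 62.9, 50.8 and 58.9 PSI in DMSO A, B and C, Kdm1b at 20.8, 25.9 and 32.1, and Lphn2 at 16.95, 15.1 and 18.5. In the other direction calls were less frequent than between single DMSO libraries. They were in Shank2, a scaffold of excitatory synapses (67.2 against 25.7 PSI), Iffo1 (62.8 against 32.9), Heatr5a (42.0 against 17.8), Heatr7a (100 against 79.4), Kifc3, Edem3 and Urgcp. Of the 31 microexons that rose with SCH-772984, 29 had a Trametinib value, of which SCH-772984 was called higher in 4 and lower in 1, Mast2. The 31 were chosen for high values with SCH-772984, so this split favours it.

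The other event types held large single differences in genes of splicing and of the cascade, with overall shares near those among controls. The 53-nt exon of Rbfox1, itself a neuronal splicing factor, was at 30.9, 39.8 and 23.9 PSI in DMSO A, B and C, 57.9 with SCH-772984 (47.1 to 67.9) and 53.1 with Trametinib. A 150-nt exon of Celf6, of a family of RNA-binding proteins, was at 78.5 PSI in DMSO A, 75 in DMSO B and 97.7 with SCH-772984. Both treated values were above the controls. A splice site of Srsf4, which encodes an SR protein, that adds 24 nt was used at 14.3 and 18.1 PSI in DMSO A and B and in 0 of 51 reads with SCH-772984, which allows up to 5.88 PSI. Trametinib was at 0 as well. Low use of this site was not particular to these 2 compounds. In 15 libraries of the other compounds it ran from 0 to 9.38 PSI with a median of 4.88, below both controls.

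Within the cascade, a 3′ splice site of the growth factor receptor gene Igf1r that adds 3 nt was used at 16.3, 6.63 and 10.8 PSI in DMSO A, B and C. It was at 35.1 PSI with SCH-772984 (27.1 to 44.2, 116 reads) and at 7.75 with Trametinib, and the highest of the other compounds' libraries was at 30.02. In Rps6ka4, which encodes the kinase Msk2 that ERK activates, a 108-nt intron was retained at 8, 1.67 and 5.88 PSI in DMSO. With SCH-772984 its retention was 30.1 PSI (19.5 to 43.3) and with Trametinib 3.12. The 165-nt exon of Etv4 was at 71.9, 74.2 and 80.4 PSI in DMSO and at 57.1 with SCH-772984 from 42 reads. The mRNA of Etv4 was also much lower in that library, as given below.

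Smaller calls fell in the same gene groups. A 5′ splice site form of Fgfr2 was at 13.04, 4.61 and 6.31 PSI in DMSO and 20.4 with SCH-772984, while a form of Hnrnpk was at 15.7, 10.1 and 2.84 PSI and 21.9, where the difference was 8.945 PSI and not called without DMSO C. A 210-nt intron of the kinase gene Map3k11 was retained at 58.6, 44 and 89.4 PSI in DMSO and 100 in both SCH-772984 and Trametinib, so its controls varied widely. An intron of the adaptor gene Frs3 went from 9.80 and 11.8 PSI in DMSO A and B to 0 of 32 reads with SCH-772984, which allow up to 9.38 PSI, and was not called without DMSO B (-9.80 PSI). Among the largest differences of all types were those in Plekhg4, where a 179-nt intron was at 25.6 and 20 PSI in DMSO A and B and 73.7 with SCH-772984, and in Kalrn, where a 5′ splice site was at 69.0 and 87.9 PSI and 34.6 with SCH-772984. In Pdzd2 a 156-nt exon was at 96.6 and 89.5 PSI and 49.3 with SCH-772984. These 3 rested on 33, 39 and 56 reads in the treated library and had no DMSO C value.

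Gene expression was compared between the SCH-772984 library and the merged DMSO column, with a gene counted where it differed by more than 2-fold and was above 5 RPKM in either. Ratios are log2 of RPKM with 0.5 added to each side, which understates the change of low genes. Of 9634 genes above 5 RPKM, 122 were lower (1.27%) and 61 higher (0.633%) with SCH-772984. The median log2 ratio was -0.05, and the 5th and 95th percentiles were -0.50 and 0.42. With 1 RPKM value per condition these ratios have no replicate error and were not tested, and fewer molecules per cell cannot be told apart from a smaller share of cells that express a gene. Of the lower genes 69 were protein coding (0.838% of 8236 such genes) and of the higher ones 23 (0.279%). A further 14 lower genes and 5 higher ones were pseudogenes, whose reads can be split with their parent genes. The lower genes included 14 listed at 0 RPKM with SCH-772984, 1 of them at 191 RPKM in DMSO, and 3 of the higher genes were listed at 0 in DMSO, for which no fold is given.

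The genes that report ERK activity were lower as a group. Of 63 such genes in 4 lists, 36 were above 5 RPKM, of which 10 were more than 2-fold lower (27.8%, where all genes gave 1.27%) and 1 was higher. Their median log2 ratio was -0.60, and 29 of the 36 were below 0, where 5573 of all 9634 genes were. Trametinib had 16 of the 36 more than 2-fold lower than DMSO. The 4 lists were written with earlier results of these data known. The contrast with all genes therefore describes these genes and tests nothing.

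Of 9 feedback inhibitors above 5 RPKM, all were below DMSO and 3 more than 2-fold, with a median of -0.78. The phosphatase Dusp6, which dephosphorylates ERK in the cytoplasm, was at 22.01 RPKM in DMSO, 2.71 with SCH-772984 and 0.69 with Trametinib, a log2 ratio of -2.81 for SCH-772984. Dusp4, its nuclear counterpart, was at 60.3, 11.8 and 3.89 RPKM in the same order. The Sprouty gene Spry4 was at 6.6, 1.03 and 0.05 RPKM. For all 3 genes SCH-772984 lay between DMSO and Trametinib. Spry2 (12.9 RPKM in DMSO, 7.33 with SCH-772984), Dusp5 (6.33 and 3.40), Spred1 (33.3 and 23.5) and Spred2 (30.5 and 21.96) were lower by less than 2-fold.

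Of 8 ETS-related factors above 5 RPKM, 3 were more than 2-fold lower. Etv4 was at 66.0 RPKM in DMSO, 4.29 with SCH-772984 and 1.41 with Trametinib, 13.9-fold lower on the scale with 0.5 added. Etv5 was at 35.0, 3.77 and 0.42 RPKM, a log2 ratio of -3.06. Etv1, the third of this subfamily, was at 19.9 RPKM in DMSO and 12.1 with SCH-772984, within 2-fold, while Trametinib had it at 3.58. Elk3, a partner of serum response factor, was at 14.1, 6.48 and 6.94 RPKM.

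The immediate early genes were mixed, and most were low in these cells. Of 12 above 5 RPKM, 1 was more than 2-fold lower and 1 higher, with a median of -0.42. Egr1 had the smallest ratio of any named gene, at 16.8 RPKM in DMSO, 0.35 with SCH-772984 and 0.26 with Trametinib, a log2 ratio of -4.35. Of 26 other compounds only 1 had a lower Egr1 value. Ier2 (42.6 RPKM in DMSO, 22.98 with SCH-772984) and Junb (20.2 and 11.2) were lower by less than 2-fold, and Junb was at its lowest of all 27 compounds. Jun, at 15.9 and 25.9 RPKM, and Klf6, at 23.6 and 51.4, stood on the other side, and Klf6 was the 1 gene of these lists that was more than 2-fold higher. Fos and Maff were under 5 RPKM, with Fos at 2.87 in DMSO and 1.05 with SCH-772984 and Maff at 4.33 and 0.47. Myc was at 95.6 and 75.4 RPKM.

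Of 7 other output genes, 3 were more than 2-fold lower. The neuropeptide precursor Vgf was at 108 RPKM in DMSO, 31.1 with SCH-772984 and 12.02 with Trametinib. The urokinase receptor Plaur was at 19.9, 7.67 and 7.99 RPKM and Phlda1 at 5.40, 1.15 and 0.53. Plk3, at 13.4 and 6.50 RPKM, had a log2 ratio of -0.99, just inside 2-fold. Ccnd1, the cyclin that links ERK to the cell cycle, was at 93.5 RPKM in DMSO, 63.4 with SCH-772984 and 40.5 with Trametinib.

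**Figure D3:**
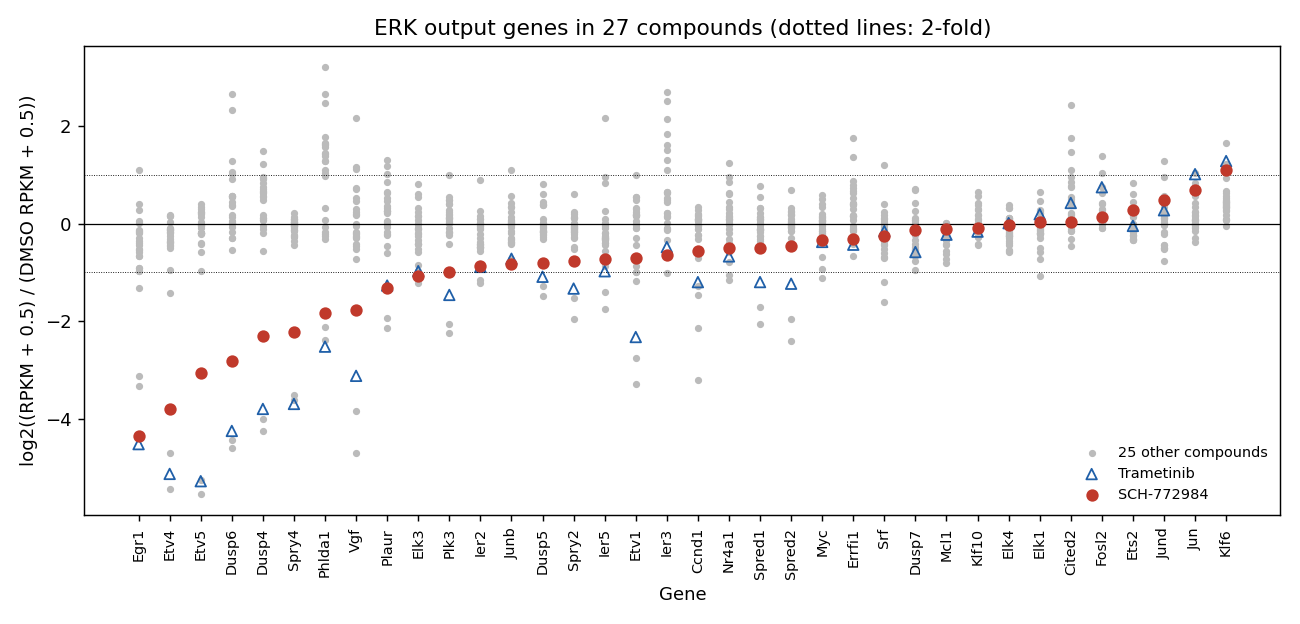
log2 ratio to DMSO, with 0.5 RPKM added, of the genes in the 4 ERK output lists above 5 RPKM, for each of 27 compounds. Filled circles are SCH-772984, triangles Trametinib and small grey points the 25 other compounds, with dotted lines at 2-fold; the lowest SCH-772984 point is Egr1 at -4.35, only Klf6 is past the upper line, and all compounds share the same DMSO value.

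The place of SCH-772984 among the compounds differed between these genes. Of the 36, 18 had 3 or fewer of the 26 other compounds lower than SCH-772984, 8 had 4 to 13 and 10 had more than 13. For Etv4, Etv5, Dusp6, Dusp4, Spry4, Spry2 and Vgf, 3 of the 26 other compounds, Trametinib among them, had a lower RPKM and 23 a higher one. For Ccnd1, Etv1, Dusp7 and Ets2 the numbers with a lower RPKM were 6, 7, 14 and 23. Between SCH-772984 and Trametinib, 7 of the 36 output genes were more than 2-fold higher with SCH-772984 and none lower. Over 9582 genes above 5 RPKM in either of this pair, 0.689% were higher and 0.595% lower. The 36 were above 5 RPKM in DMSO or SCH-772984, so the sets differ and their shares cannot be set side by side. Etv4, Etv5, Dusp6 and Spry4, below 5 RPKM with both compounds, are among the 36 and not the 9582. The median log2 ratio between the pair of libraries was 0.19 over the 36 and 0.05 over the 9582. Etv5 had a log2 ratio of 2.21, Etv1 of 1.62, Dusp4 of 1.49 and Dusp6 of 1.43. Among the genes lower with SCH-772984 were 3 coding genes outside these lists. Adm, which encodes adrenomedullin, was at 2.42 RPKM with SCH-772984 and 12.2 with Trametinib, the cilium gene Tekt2 at 0.77 and 5.21, and Rgs4 at 11.3 and 46.1.

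Receptors and genes of the cascade were counted in separate lists. Of 5 genes of the receptor list above 5 RPKM, 2 were more than 2-fold lower. Ret, the receptor for the GDNF family, was at 132 RPKM in DMSO, 47.3 with SCH-772984 and 30.6 with Trametinib. Ngfr, the p75 neurotrophin receptor, which has no kinase domain, was at 46.0, 11.7 and 6.76 RPKM. The coreceptor Gfra1 was in no list and among the genes with the largest ratios, at 3.59 RPKM in DMSO and 11.4 with SCH-772984. None of 13 adaptors and Ras regulators, of 17 Ras, Raf, MEK and MAP kinase genes or of 13 scaffolds and substrates was past 2-fold. Over all 9634 genes 1.27% were lower and 0.633% higher, so lists this short can hold none without differing from other genes. Among them were Mapk3, which encodes an ERK kinase, at 33.6 RPKM in DMSO and 39.0 with SCH-772984, and the MEK genes Map2k1 at 32.6 and 27.3 and Map2k2 at 41.9 and 35.7.

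With the same genes left out as for the highest ratios below, other genes with small ratios were Loxl2, a lysyl oxidase of the matrix (18.01 RPKM in DMSO, 1.04 with SCH-772984), the transporter gene Abcc3 (11.8 and 1.67), the secretin receptor gene Sctr (5.5 and 0.65) and Ptgs1, which encodes cyclooxygenase 1 (20.02 and 5.06). Mycn, the transcription factor amplified in many human neuroblastomas, was at 10.9 RPKM in DMSO, 2.34 with SCH-772984 and 1.91 with Trametinib. It was the only 1 of 20 sympathoadrenal and neuronal markers past 2-fold. In that list 13 genes were above DMSO and 7 below, and Gap43 and Stmn2, of growing axons, were at 174 and 242 RPKM and at 175 and 261.

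Leaving out genes listed at 0, pseudogenes and numbered or small RNA gene models, the coding genes with the largest ratios above DMSO included Rgs4, an inhibitor of G protein signalling (3.01 RPKM in DMSO, 11.3 with SCH-772984, 46.1 with Trametinib), and Pdlim3, a protein of the actin cytoskeleton (17.5, 56.2 and 121). Hdac9, a class IIa histone deacetylase, was at 5.89, 17.5 and 26.8 RPKM, and Stmn4, a neuronal stathmin, at 12.2, 32.1 and 67.2. Scn3b, a sodium channel subunit, was at 14.7, 33.1 and 59.0 RPKM. In these 5 genes the Trametinib value was above that of SCH-772984. The antisense transcript Tspan2os, at 2.48, 7.63 and 6.53 RPKM, cannot be told apart from its partner unless the counting used strand.

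**Figure D4:**
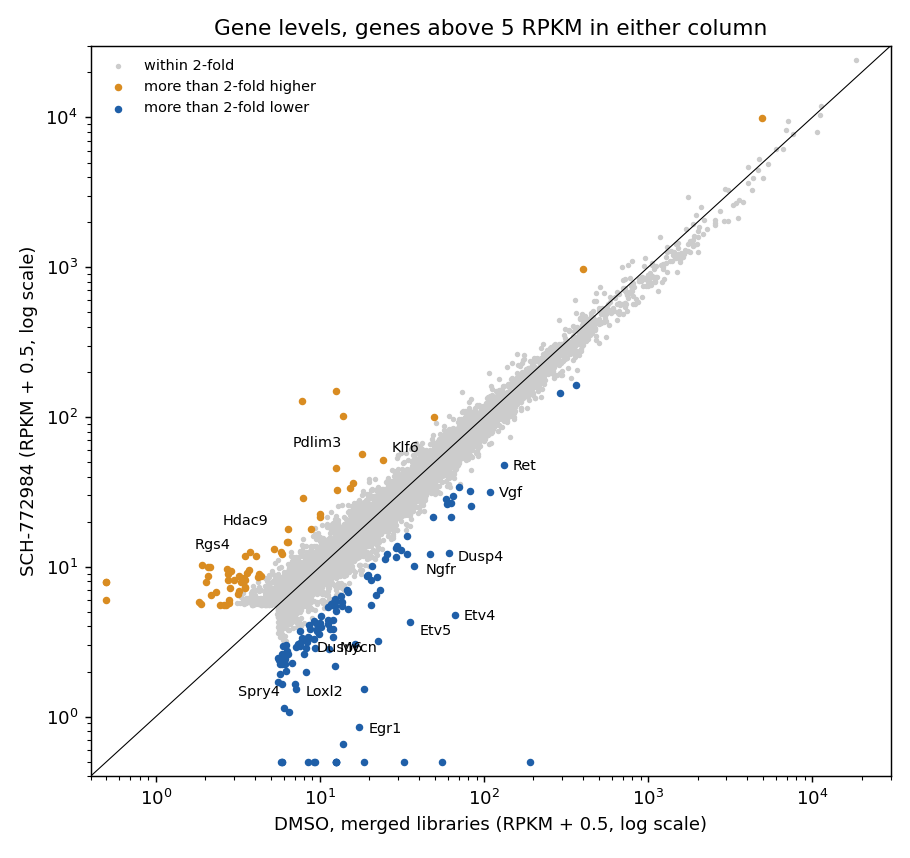
RPKM with 0.5 added in the SCH-772984 library against the merged DMSO column, both on log scales, for genes above 5 RPKM in either. Colours mark genes more than 2-fold higher (61) or lower (122) and the line marks equal values; Egr1, Etv4, Etv5, Dusp6 and Loxl2 lie far below it.

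The mRNAs of factors that control microexons showed no change past 2-fold, where 1.27% of all genes were lower and 0.633% higher. Protein was not measured here. For Trametinib the paper reports raised SRRM4 and lowered RBM38 protein without significant mRNA changes. Of 24 neural splicing regulators above 5 RPKM, log2 ratios ran from -0.52 to 0.36 with a median of 0.08. Srrm4 was at 10.4 RPKM in DMSO, 11.3 with SCH-772984 and 13.3 with Trametinib, and Srrm3 at 18.5, 19.7 and 16.9. Rbm38 had the smallest ratio, at 40.6, 28.1 and 23.3 RPKM. Ptbp1, a repressor of neuronal exons, was at 476, 391.6 and 368 RPKM. Rbfox1, whose exon is described above, was at 5.07 and 3.79 RPKM. Of 32 SR, hnRNP and related genes none was past 2-fold either, with ratios from -0.37 to 0.27.

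Genes of the cell cycle had log2 ratios between -0.45 and 0.65. Over all 9634 genes 1.27% were more than 2-fold lower and 0.633% higher, and 5573 were below DMSO by any amount. Lists as short as those that follow can hold no gene past 2-fold without differing from other genes. Of 25 genes of G1 and S phase none was past 2-fold, with a median of -0.18 and 21 below DMSO, and of 18 genes of G2 and M phase none, with a median of 0.02. Among 10 p53 targets only Gdf15 was past 2-fold, at 5.43 RPKM in DMSO and 2.07 with SCH-772984. Of 11 genes of the integrated stress response 10 were below DMSO, with a median of -0.38, and none was past 2-fold. All 19 sterol synthesis genes above 5 RPKM were above DMSO, with log2 ratios from 0.05 to 0.88 and a median of 0.38, beside -0.05 over all genes, and none was past 2-fold. Hmgcs1, an early enzyme of the pathway, was at 107 and 196 RPKM, and Idi1 at 137 and 217.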

How the data were processed

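PolyA+ RNA of N2A cells was sequenced by the study, and the processed tables were used here. The deposited PSI values, in percent, were made by the authors with vast-tools on mouse mm9 events, together with a quality string that holds the reads behind each value. Gene levels were deposited as RPKM, which the authors derived from Salmon (version 0.10.2 in the submitters' processing notes) on GENCODE vM21 transcripts, with replicates merged. The authors' fold changes, p-values and FDR from edgeR were not used, and 0 value columns lacked a condition.

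Exons needed sufficient coverage and balanced reads, and introns 15 reads or more and a p for balance over 0.05. Posterior probabilities came from 2000 draws per library of beta distributions of the reads with 1 added on each side. Intervals are 95% Wilson intervals and cover counting error only. Scripts ran in Python 3.11.15 with numpy 2.4.6 and pandas 2.3.3, and limma 3.58.1 in R 4.3.3 was an alternative. The calls were also run on simulated reads at the real depths, with a spread between libraries that was set beforehand. That spread was not taken from the DMSO libraries, so the run does not measure how often calls are wrong here. The members and the gene lists were chosen with earlier results of these data known, and some tables were adapted from an earlier analysis of the series. Named are members of those lists, the 15 genes at each end of the ratios (listed above 0 in both conditions, without pseudogenes and numbered gene models), the 12 microexons at each end of the calls, the 6 of each other event type, exons of 7 genes the study followed, called events in genes of the cascade and of splicing, and the 6 largest differences from Trametinib in each direction. Some genes of the lists are not reported here by name.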

Additional observations from a re-analysis of the deposited data

How the results depend on the processing

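No paired analysis was possible because SCH-772984 has 1 library. At a difference of at least 15 PSI, microexons called increased and decreased were 12 and 1, cassette exons 78 and 71, alternative 3′ splice sites 35 and 54, alternative 5′ splice sites 45 and 51, and introns 102 and 73, while microexons higher and lower than with Trametinib were 4 and 12. With stricter coverage, introns gave 102 and 74. Leaving out each DMSO library in turn gave 30 to 33 microexons increased and 3 to 4 decreased. limma gave 0 calls of at least 10 PSI at an adjusted p below 0.05 for every event type, while 30 microexons were higher and 10 lower at an unadjusted p below 0.05 (1275 and 1977 cassette exons, 535 and 493 alternative 3′ splice sites, 370 and 386 alternative 5′ splice sites, 1631 and 2288 introns). In that limma fit an unadjusted p below 0.05 was reached by 6.44% of microexons and 6.03% of cassette exons. The shares were 6.14% for alternative 3′ splice sites, 6.08% for alternative 5′ splice sites and 4.6% for introns. By this share, both directions together, microexons stood little above the other event types. With a limit of 1 RPKM, 249 genes were higher and 304 lower, and with none 321 and 444, and 3 immediate early genes were lower under both. With a pseudocount of 0.1, 2 sympathoadrenal markers were lower. Among named exons, the difference from DMSO changed sign for 4 when a DMSO library was left out, with ranges of -0.16 to 4.24 PSI for the 45-nt exon of Mgrn1 (-0.03 without DMSO C), -5.14 to 27.48 for Sgip1, -4.925 to 1.13 for Ank2 and -2.93 to 2.765 for the 48-nt exon of Asph. Centring the ratios on the median changed no call among named genes. Depth limits events with few reads, above all those without a DMSO C value. The study's Reporting Summary states fewer DMSO replicates than the 3 labelled here. The cause of these shifts was not tested.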
